A study of Homo sapiens with 2 samples.

Results

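Cathepsins are proteases of the lysosome and endosome, and 9 of their genes were followed here: CTSA, CTSB, CTSC, CTSD, CTSH, CTSK, CTSL, CTSS and CTSZ. They were chosen by symbol from the 36601 genes of the deposited matrices, and all 9 were found. The data are 2 single-cell RNA libraries of colon organoids. Their source was 1383D6, an established human line of induced pluripotent stem cells. The CNT library came from organoids without cytokines, and the 3CK library from organoids that received IL-1β, TNF-α and IFN-γ, 3 inflammatory cytokines, over 8 days. Both cultures shared the same route of differentiation, with Activin A and Y-27632, then FGF2, then embedding in Matrigel with EGF, forskolin, PD98059 and 5-Aza-2'-Deoxycytidine among the agents. The series title names ulcerative colitis modelling, and the question addressed here is which cathepsin genes differ in treated organoids. There is 1 library of 1 line per group, so no difference has a replicate check and no test was made. All intervals are at 95% and cover counting error only.

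Most cathepsins are made as inactive precursors, sorted to lysosomes by mannose 6-phosphate receptors, and activated at acidic pH by removal of a propeptide. CTSB, CTSC, CTSH, CTSK, CTSL, CTSS and CTSZ are cysteine proteases, CTSD is an aspartic protease, and CTSA is a serine carboxypeptidase. Their work is bulk protein turnover, activation of other proenzymes and, in antigen-presenting cells, cutting the invariant chain (CD74) from MHC class II. Cystatins and several serpins inhibit the cysteine members.

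The deposited matrices held 3257 CNT barcodes with 105314879 unique molecular identifiers (UMIs) and 1641 3CK barcodes with 94887438. After filtering, 2487 and 1398 barcodes remained, and the libraries shared 0 barcodes. Epithelial cells were defined by EPCAM, at 2 or more UMIs per 10000, and mesenchymal cells by COL1A1, COL1A2 and COL3A1 summed, at 5 or more per 10000 with EPCAM under 1, so the levels of these genes are no finding. This gave 1660 epithelial and 574 mesenchymal CNT cells, and 1016 epithelial and 124 mesenchymal 3CK cells. The median depth was 37785 UMIs in epithelial CNT cells and 72198 in 3CK, and 23451 and 65363 in mesenchymal cells. The intestinal markers CDX2 and CDH17 were present in epithelial cells, at 80.6 and 302.4 CPM (the UMIs of a gene per 1000000 UMIs of its class) in CNT. The goblet cell gene MUC2 was scarce there at 1.04 CPM. Epithelial cells also carried high hepatic transcripts, whose 5 markers summed to 94449 CPM in CNT and 30653 CPM in 3CK. Of the epithelial cells, 497 in CNT and 49 in 3CK also passed the collagen boundary.

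The main pattern was a single gene. CTSS, the cathepsin best known for cutting the invariant chain in antigen-presenting cells, was close to absent without cytokines and among the abundant cathepsins with them, in the summed UMIs of epithelial and mesenchymal cells alike. CTSH, an aminopeptidase, was lower in 3CK in both classes, and it was the member that separated the classes most. In the summed UMIs of mesenchymal cells CTSZ, CTSC and CTSB were higher in 3CK, whereas CTSL and CTSA were lower there. CTSD and CTSB, the most abundant members, differed little in epithelial cells.

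**Figure D1:**
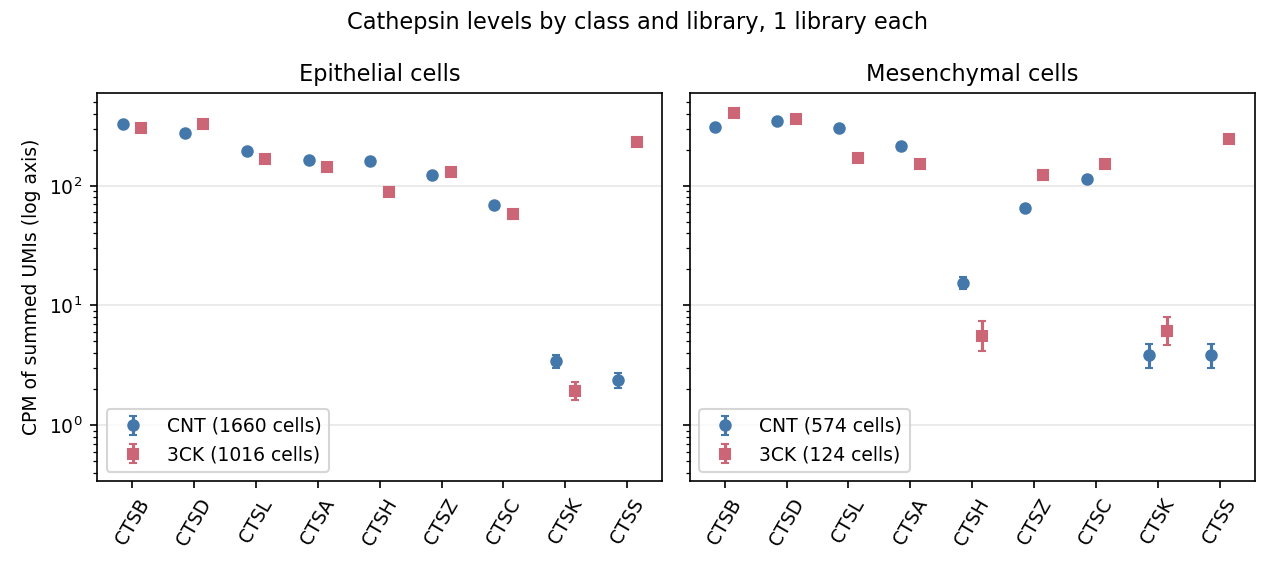
Levels of the 9 cathepsins in CPM (UMIs of a gene per 1000000 UMIs of the class, log axis) in epithelial and mesenchymal cells, with 1 library per point and 95% Poisson intervals. CTSS sits at 2.36 and 3.82 CPM in CNT and at 233 and 248 CPM in 3CK, while CTSA, CTSB, CTSC, CTSD, CTSL and CTSZ sit between 58.6 and 408 CPM.

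CTSS is annotated at chr1:150730079-150765957 on the minus strand (GRCh38, GENCODE v44), next to CTSK at chr1:150794880-150809577 with 28922 bases between them. In epithelial cells CTSS had 180 UMIs in CNT (2.36 CPM, 2.03 to 2.73) and 16340 UMIs in 3CK (233 CPM, 229 to 237). That is 98.6-fold, with a counting interval of 85.2 to 114.9. In mesenchymal cells it had 75 UMIs in CNT (3.82 CPM, 3.00 to 4.78) and 2261 in 3CK (248 CPM, 238 to 258). The ratio there was 65.0-fold (51.6 to 82.9). The barcodes that met neither class definition showed the same direction, with 22 UMIs in CNT and 2898 in 3CK. The ratio of CTSS was surpassed by 25 of the 9786 genes that reached 10 CPM in either epithelial sum, and by 15 of the 10272 such genes in mesenchymal cells.

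Both classes reached like CTSS levels in 3CK, with a mesenchymal over epithelial ratio of 1.06 (1.02 to 1.11), or a log2 value of 0.09 that became -0.09 with TMM scaling. TTR, an abundant hepatic transcript of the epithelial class, was used as a reference for RNA carried between droplets. It stood in mesenchymal cells at 2.17% of its epithelial CPM in CNT and at 1.22% in 3CK, whereas CTSS in 3CK stood at 106%. The hepatic transcripts ALB and AFP stood at 4.16% and 3.74% in CNT, and at 2.46% and 2.91% in 3CK. How much of the mesenchymal CTSS is RNA from other cells was not tested.

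Counted by cell, a CTSS UMI was found in more 3CK than CNT cells. After thinning every cell to 5000 UMIs, 10 of 1062 epithelial CNT cells held a CTSS UMI (0.942%, 0.452 to 1.72), against 485 of 776 in 3CK (62.5%, 59.0 to 65.9). In mesenchymal cells the counts were 2 of 320 (0.625%, 0.0758 to 2.24) and 60 of 107 (56.1%, 46.1 to 65.7). Thinning left out 598 and 240 shallower epithelial cells and 254 and 17 mesenchymal cells. As a background, COL1A1 was found in 17.1% of thinned epithelial CNT cells and 5.67% of 3CK cells, so a share of cells does not by itself separate expression from free RNA. TTR was found in 97.2% and 62.6% of mesenchymal cells. The CTSS share in CNT lay below these background shares in both classes. In 3CK the epithelial share of 62.5% lay above that of COL1A1, whereas the mesenchymal share of 56.1% lay below the 62.6% of TTR. TTR was at 19491 CPM in epithelial 3CK cells, against 233 CPM for CTSS, so its share is not a matched background. COL1A1 is not matched either. It helps define a mesenchymal class of only 124 cells in 3CK, and 49 epithelial 3CK cells passed the collagen boundary. Whether the mesenchymal share is expression in those cells was not tested. Unthinned, the CTSS share was 7.41% and 80.1% in epithelial cells and 8.36% and 84.7% in mesenchymal cells. Among 3CK cells with at least 10000 UMIs, 699 of 730 epithelial cells (95.8%) and 94 of 106 mesenchymal cells (88.7%) exceeded the 90th percentile of CNT cells of their class. The epithelial median in 3CK was 2.00 UMIs per 10000, with a 10th percentile of 0.432 and a 90th of 4.67. Without scaling by depth, the 102 epithelial 3CK cells with the most CTSS held 36.2% of its UMIs, close to the 36.0% for CTSZ.

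**Figure D2:**
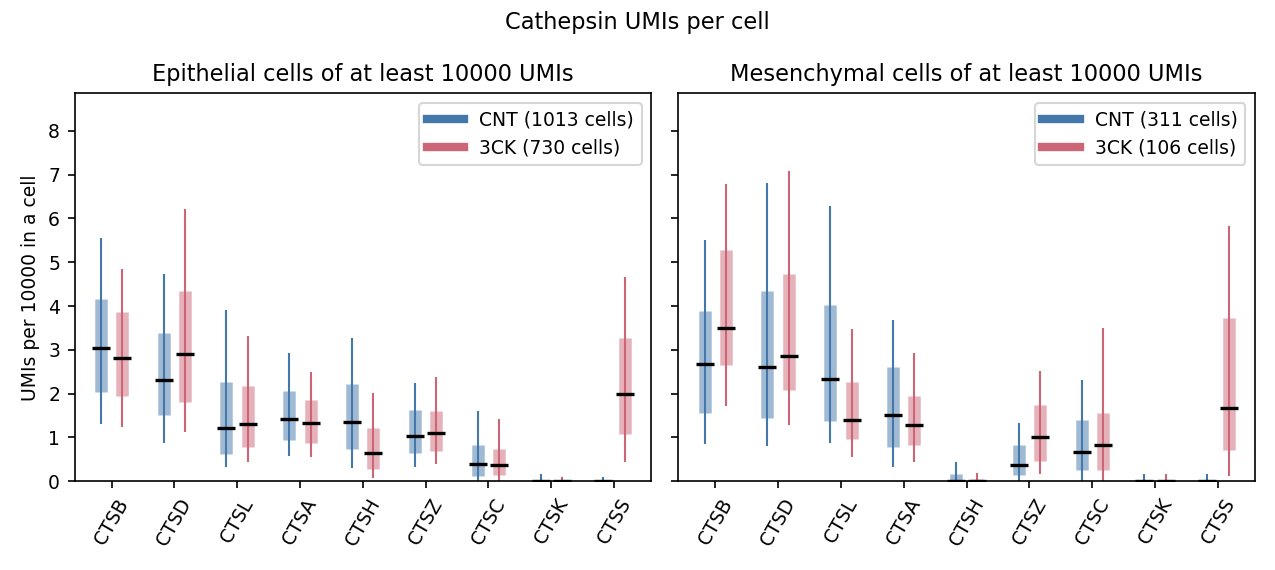
UMIs of each cathepsin per 10000 in single cells with at least 10000 UMIs, by class and library. Black dashes are medians, thick bars run from the 25th to the 75th percentile and thin lines from the 10th to the 90th. The CTSS medians in 3CK are 2.00 in epithelial and 1.67 in mesenchymal cells, and 0 in CNT.

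Markers of macrophages and other leukocytes, which express CTSS highly, were checked beside this result. Of 11 markers, 6 reached 10 CPM in mesenchymal cells, and 5 of these (CD68, TYROBP, AIF1, FCER1G and SPI1) were at least 2-fold higher in 3CK. The remaining marker, CD14, was not higher. The marker sum was 70.9 CPM in mesenchymal CNT cells and 237 CPM in 3CK, and 104 and 118 CPM in epithelial cells. Single markers were counted in cells with at least 10000 UMIs. From 311 mesenchymal CNT cells to 106 in 3CK, PTPRC (CD45) went from 10 to 33 UMIs, SPI1 from 8 to 122, AIF1 from 13 to 102 and TYROBP from 530 to 797. The share of these cells with a UMI was 2.57% and 17.9% for SPI1, and 35.4% and 68.9% for TYROBP. For CD14 there were 255 and 107 UMIs, and the share was 14.5% and 13.2%. CSF1R had 5 and 4 UMIs there, C1QA 3 and 6, and C1QB 0 and 8. In epithelial cells, 1013 in CNT and 730 in 3CK, PTPRC had 18 and 6 UMIs, SPI1 7 and 17, and CSF1R 302 and 96. When cells with any UMI of PTPRC, SPI1 or CSF1R were left out, 95 mesenchymal and 937 epithelial 3CK cells remained. The CTSS log2 ratio was then 5.77 in mesenchymal cells, against 6.02 with them, and 6.81 in epithelial cells, against 6.62.

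The epithelial class was not uniform, and the 2 libraries filled its TTR ranges differently. Cells with over 500 TTR UMIs per 10000 made up 37.3% of epithelial CNT cells and 8.07% of 3CK cells, and cells under 50 made up 5.90% and 27.8%. CTSS in 3CK was 262 CPM in the range under 50, 233 CPM from 50 to 500, and 149 CPM over 500. In CNT it was 2.90, 2.53 and 2.17 CPM in the same order. The log2 ratio was 6.49, 6.53 and 6.11, so the smallest of these ratios was 68.9-fold. In epithelial cells under the collagen boundary the CTSS ratio was 6.63, and in those above it 6.01.

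CTSH, at chr15:78921058-78949574 on the minus strand, encodes an aminopeptidase that trims free N termini and is known from lung epithelium for processing surfactant protein. In epithelial cells it was 162 CPM in CNT and 88.3 CPM in 3CK, a log2 ratio of -0.88 (-0.92 to -0.84). Mesenchymal cells had 304 UMIs in CNT (15.5 CPM) and 51 in 3CK (5.59 CPM), a log2 ratio of -1.47 (-1.93 to -1.04). Mesenchymal cells thus stood 10.5-fold below epithelial cells in CNT (9.37 to 11.8) and 15.8-fold below in 3CK (12.0 to 21.2). With equal weight per cell, the log2 ratio of mesenchymal over epithelial cells in CNT was -1.52 instead of -3.39, and that of 3CK over CNT in mesenchymal cells was -3.40. The mesenchymal share of the epithelial CPM was 9.53% in CNT and 6.34% in 3CK, above the 2.17% and 1.22% of TTR and, as the highest of the 3 hepatic transcripts, the 4.16% of ALB in CNT and the 2.91% of AFP in 3CK. How much of the mesenchymal CTSH is free RNA was not tested.

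Within epithelial cells CTSH followed TTR. From the lowest to the highest TTR range it was 116, 158 and 172 CPM in CNT and in 3CK it was 59.4, 93.4 and 144 CPM. The log2 ratio of 3CK over CNT was -0.96, -0.76 and -0.26 in these ranges. CTSH was lower in 3CK in each of these ranges. High-TTR cells, where CTSH was highest, were a smaller share of 3CK, and their part in the pooled value of -0.88 was not tested. Among the genes whose counts over 730 epithelial 3CK cells were most like CTSH stood TTR itself, with a Pearson r of 0.27. Over 1013 epithelial CNT cells the genes most like CTSH were CD63 (0.28), CYBA (0.23) and TMEM59 (0.22), and not TTR.

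**Figure D3:**
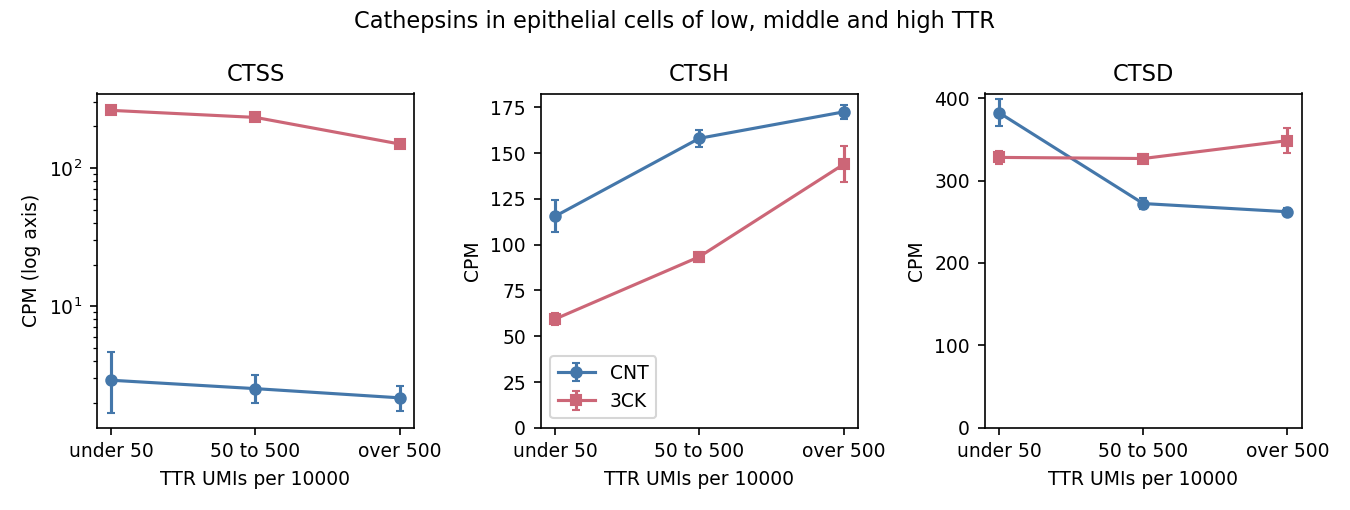
CPM of CTSS (log axis), CTSH and CTSD in epithelial cells split by TTR UMIs per 10000, with 95% Poisson intervals and 1 library per line. CTSS is higher in 3CK and CTSH lower in 3CK in all 3 ranges, while CTSD is lower in 3CK under 50 TTR UMIs and higher in the other ranges.

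The exopeptidases CTSC and CTSZ, both of the cysteine group, had ratios that differed by class. CTSC, or dipeptidyl peptidase 1, activates granule serine proteases in leukocytes and lies at chr11:88265069-88359684. It was 69.4 CPM in epithelial CNT cells and 58.6 CPM in 3CK (log2 -0.24, -0.30 to -0.19), but 114 and 153 CPM in mesenchymal cells (log2 0.42, 0.32 to 0.52). The 166 epithelial CNT cells with the most CTSC held 58.1% of its UMIs, against 37.0% for CTSB. These counts were not scaled by depth, and scarce genes give high shares, such as 86.5% for CTSK. CTSZ, a carboxypeptidase at chr20:58985686-59008238, was 123 CPM in epithelial CNT cells and 130 CPM in 3CK (log2 0.08, and -0.03 when scaled to a total without the most abundant genes). In mesenchymal cells CTSZ was 65.3 and 124 CPM (log2 0.92, 0.80 to 1.04, and 1.10 with TMM scaling), so its level in 3CK was close to the epithelial level. Without the cells that held a UMI of PTPRC, SPI1 or CSF1R, the mesenchymal log2 ratio was 0.70 for CTSZ and 0.50 for CTSC.

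The endopeptidases CTSB and CTSL degrade most proteins that reach the lysosome, and CTSB can also remove dipeptides from carboxyl ends. CTSB was 329 CPM in epithelial CNT cells and 306 CPM in 3CK (log2 -0.10, and 0.0030 with equal weight per cell), and 312 and 408 CPM in mesenchymal cells (log2 0.39, 0.33 to 0.45). Without the cells with a leukocyte transcript the mesenchymal value was 0.24. CTSL, at chr9:87724051-87731469 on the plus strand, was 194 CPM and 169 CPM in epithelial cells (log2 -0.20). This ratio was not uniform, with log2 values of -0.52, -0.19 and 0.25 from the lowest TTR range to the highest. Under the collagen boundary the CTSL value was -0.21, and in the 497 CNT and 49 3CK epithelial cells above it 0.37. In mesenchymal cells CTSL was 305 CPM in CNT and 171 CPM in 3CK (log2 -0.84, -0.92 to -0.75), the largest difference in CPM among the members that were lower there. CTSL was the member with the most extreme single cell, 55.0 UMIs per 10000 in an epithelial CNT cell against a median of 1.22. CTSK, the collagen-degrading cathepsin of osteoclasts, stayed under 10 CPM everywhere. It had 260 and 135 UMIs in epithelial cells (3.41 and 1.93 CPM) and 75 and 56 UMIs in mesenchymal cells (3.82 and 6.14 CPM).

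CTSD and CTSA are the members outside the cysteine group. CTSD, an endopeptidase at chr11:1752752-1764573, was 275 CPM in epithelial CNT cells and 329 CPM in 3CK (log2 0.26, 0.23 to 0.28). Its ratio depended on the range of TTR, with log2 values of -0.22, 0.26 and 0.41 from the lowest range to the highest. It also differed by collagens, with 0.29 in cells under the collagen boundary and -0.50 in the 497 CNT and 49 3CK cells above it. In mesenchymal cells CTSD was 348 and 364 CPM (log2 0.06). The value was -0.05 with stricter class boundaries and 0.47 with equal weight per cell. CTSA, at chr20:45890144-45898949, trims carboxyl ends and holds the sialidase NEU1 and the galactosidase GLB1 in a stable complex. It was 165 and 143 CPM in epithelial cells (log2 -0.20), and 217 and 153 CPM in mesenchymal cells (log2 -0.51, -0.59 to -0.42). With equal weight per cell the mesenchymal value was only -0.12. The 57 mesenchymal CNT cells with the most CTSA held 54.3% of its UMIs, without scaling by depth.

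CTSA and CTSD were the pair of members with the highest correlation over cells in each of the 4 groups of class and library. Pearson r of their thinned counts was 0.25 over 1013 epithelial CNT cells, 0.24 over 730 epithelial 3CK cells, 0.35 over 311 mesenchymal CNT cells and 0.36 over 106 mesenchymal 3CK cells. Cells of a group share 1 library, and such values describe sparse counts. The bases before the starts of these genes are shown because, of 6 members in the RefSeq promoter table (GRCh38.p14), these are the ones with an E-box of the letters CACGTG in the 250 bases before the start, the palindrome that TFEB and its relatives can bind. The pair was chosen after its values were seen. Each run below has 30 bases, 5′ to 3′ on the gene's strand, with the E-boxes in capitals.
CTSA: tgtCACGTGgcgccggagttCACGTGactc
CTSD: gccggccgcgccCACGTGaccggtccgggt
The CTSA run is chr20:45891290-45891319 on the plus strand, with E-boxes beginning 42 and 25 bases before the RefSeq start. An exon of 15 GENCODE CTSA transcripts overlaps it. The CTSD run is chr11:1763957-1763986 on the minus strand, with its E-box beginning 47 bases before the start, and 1 GENCODE transcript has an exon there. Of 35116 promoters searched in the same way, 6.34% held CACGTG. The letters TTCNNNGAA (in 6.57% of promoters) and GAAANNGAA (in 6.88%), searched on both strands as simple forms of STAT and IRF sites, were in none of the 6 members searched, CTSA, CTSC, CTSD, CTSH, CTSL and CTSZ. CTSS, CTSB and CTSK were not searched, so the letters before CTSS are not described. A match is a description of letters and not of binding.

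Counted as a group, 8 of the 9 members had at least 10 CPM in the higher sum for 3CK over CNT, with CTSK left out in both classes. In epithelial cells 1 of 8 was at least 2-fold higher in 3CK (CTSS), beside 7.88% of all 9786 genes at that level. None of the 8 was at least 2-fold lower there, beside 7.62% of all genes. The median log2 ratio was -0.15 for the members and 0.07 for all genes. In mesenchymal cells 1 of 8 was at least 2-fold higher (CTSS), beside 4.8% of 10272 genes, and 1 of 8 was at least 2-fold lower (CTSH), beside 9.59%. The medians were 0.23 for the members and -0.12 for all genes. Filtering on the higher sum means that a gene absent in CNT can only enter as higher, so these counts support nothing about the members as a set.

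**Figure D4:**
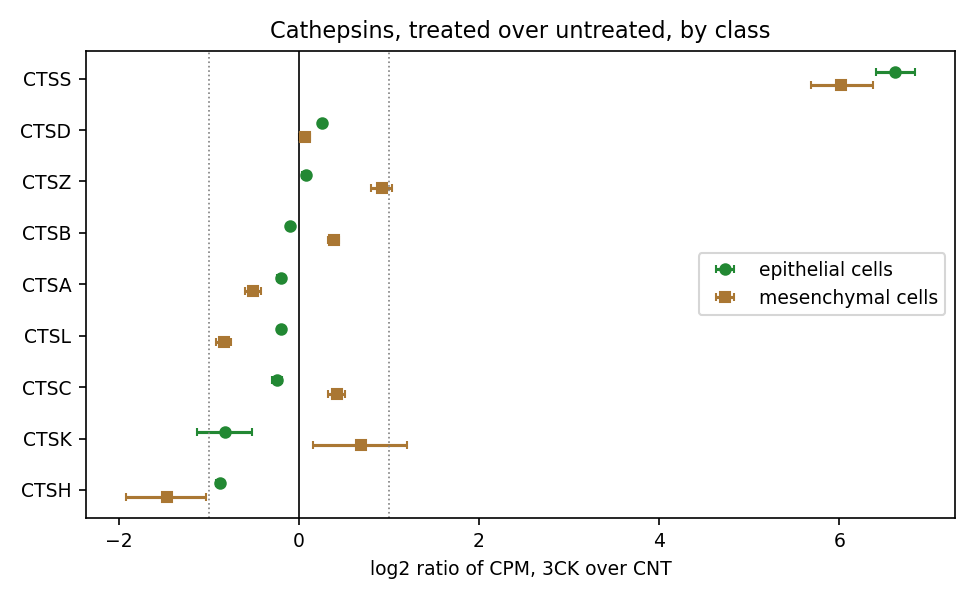
The log2 ratio of CPM in 3CK over CNT for each cathepsin in epithelial (circles) and mesenchymal (squares) cells, with 95% counting intervals and dotted lines at 2-fold. CTSS lies at 6.62 and 6.02, and CTSB, CTSC and CTSK lie on opposite sides of 0 in the 2 classes.

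Between the classes, cathepsins other than CTSH differed by less than 2-fold in CNT. Of the 7 members at 10 CPM, 0 were at least 2-fold higher in mesenchymal than epithelial CNT cells, beside 21.1% of 10891 genes, and 1 was lower (CTSH), beside 12.2%. CTSC (log2 0.72), CTSL (0.65), CTSA (0.40) and CTSD (0.34) were higher in mesenchymal cells, CTSB was near equal (-0.07), and CTSZ was lower (-0.91). The median was 0.34 for the members and 0.28 for all genes. In 3CK, 1 of 8 was at least 2-fold higher in mesenchymal cells (CTSC, 2.61-fold, 2.45 to 2.77), beside 15% of 10317 genes. There 1 of 8 was lower (CTSH), beside 13.3%, and the medians were 0.09 and 0.07. CTSL and CTSZ, which differed between the classes in CNT, stood at log2 0.02 and -0.07 in 3CK, with intervals that held 0, and CTSL was -0.16 with TMM scaling. With TMM scaling, which assumes that most genes do not differ, the CTSA and CTSD differences turned to -0.02 and -0.08 in CNT, and CTSZ reached -1.34, past 2-fold.

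Summed over the 9 members, cathepsin UMIs were 1323 CPM in epithelial CNT cells and 1458 CPM in 3CK. In mesenchymal cells the sums were 1386 and 1632 CPM. CTSS made up 0.179% of epithelial cathepsin UMIs in CNT and 16.0% in 3CK, and 0.275% and 15.2% in mesenchymal cells. Without CTSS the epithelial sum was 1320 CPM in CNT against 1225 CPM in 3CK. The mesenchymal sum was 1382 against 1384 CPM. The 8 other members together were thus lower by a log2 value of -0.11 in epithelial cells and near level in mesenchymal cells (0.0024).

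Other lysosomal genes were counted by list, beside the shares of all genes given above (7.88% higher and 7.62% lower in epithelial cells, 4.8% and 9.59% in mesenchymal cells). Lists of this size hold few genes past 2-fold at such shares, so the counts set no list apart. Of 25 lysosomal hydrolases, 23 reached 10 CPM in epithelial cells and 22 in mesenchymal cells. In epithelial cells 1 was at least 2-fold higher (ACP5, 4.71 and 13.1 CPM) and 0 were lower, with a median log2 ratio of -0.09. In mesenchymal cells 0 were past 2-fold and the median was -0.11. The most abundant of them, NPC2, was 311 and 226 CPM in epithelial cells. Of 10 lysosomal membrane genes, 1 was past 2-fold in epithelial cells, LAMP3, from 0.893 CPM to 34.5 CPM (log2 5.27), and the median was -0.06. In mesenchymal cells 0 of 8 were past 2-fold (median -0.16). LAMP3 is known as a marker of mature dendritic cells and is inducible by interferon.

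The proton pump acidifies the lysosome, and of its 16 genes 1 was at least 2-fold lower in epithelial 3CK cells (ATP6V0D2, log2 -1.35), with a median of 0.0018. In mesenchymal cells 0 of 15 were past 2-fold (median 0.15). The 12 genes of sorting to lysosomes, among them the mannose 6-phosphate receptors M6PR and IGF2R, had 0 of 11 past 2-fold in both classes, with medians of 0.08 and -0.20. Among 4 transcription factors of the TFEB family, MITF was lower in 3CK in both classes (log2 -1.50 and -1.29), and TFE3 was higher by less than 2-fold (0.95 and 0.50). TFEB itself was 4.37 and 6.42 CPM in epithelial cells, under the 10 CPM limit.

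Genes that work with cathepsins were mixed. IFI30, the interferon-inducible lysosomal thiol reductase, was 32.1 CPM in epithelial CNT cells and 420 CPM in 3CK (log2 3.71), and 18.5 and 285 CPM in mesenchymal cells (log2 3.95). It was the only one of the 7 partner genes at least 2-fold higher in either class. NEU1, the partner of CTSA, was 387 and 162 CPM in epithelial cells (log2 -1.26), the only one at least 2-fold lower. LGMN, an asparaginyl endopeptidase that processes cathepsin precursors, was 98.6 and 178 CPM in epithelial cells (log2 0.85), with a log2 ratio of 0.84 in mesenchymal cells. The partner medians were 0.17 and 0.11.

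A list drawn up as cathepsin inhibitors, of cystatins, SERPINB genes and A2M, held genes past 2-fold in both directions. Whether each gene of the list inhibits any of the 9 members was not examined. Of 15 genes, 9 reached 10 CPM in epithelial cells, with 2 at least 2-fold higher in 3CK, SERPINB8 (log2 1.26) and SERPINB1 (1.15), and 2 lower, CST1 (-1.17) and CST6 (-1.13). Their median was 0.14. The most abundant, CST3 or cystatin C, a secreted inhibitor of most cysteine cathepsins, was 1591 and 1333 CPM. In mesenchymal cells 2 of 8 were higher, SERPINB8 (1.32) and SERPINB4, and A2M was lower (log2 -3.42), with a median of 0.43. SERPINB4 had 1 UMI in CNT and 352 in 3CK, and its near-identical copy SERPINB3 had 3 and 55, so how reads were split between them is uncertain. CST1 has near-identical copies too.

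The partners of CTSS in class II antigen presentation were unequal. CD74, its substrate, was 14.3 and 83.8 CPM in epithelial cells (log2 2.55) and 23.0 and 121 CPM in mesenchymal cells (2.39). It was the only one of 8 antigen processing genes past 2-fold among those at 10 CPM, of which there were 2 in epithelial cells (median 1.43) and 1 in mesenchymal cells. In epithelial cells HLA-DPB1, the most abundant of the 8, was also at 10 CPM and was higher in 3CK by less than 2-fold. HLA-DRA had 2 UMIs in epithelial CNT cells and 10 in 3CK, and CIITA, the class II transactivator, had 18 and 9. The interferon regulatory factors IRF1 (log2 4.51) and IRF8 (1.48) were at least 2-fold higher in epithelial 3CK cells. In mesenchymal cells IRF1 was also higher (3.07). Of 5 matrix genes that cathepsins can cut, FN1 was 773 and 744 CPM in epithelial cells. The 3 collagens among them define the mesenchymal class and are not read here.

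Of 6 cathepsins outside the 9, CTSE and CTSV were mainly epithelial. CTSE, an aspartic protease of gastric and intestinal epithelium, was 172 CPM in epithelial CNT cells and 90.5 CPM in 3CK (log2 -0.93). It had 57 and 10 UMIs in mesenchymal cells. CTSV was 54.4 and 15.6 CPM in epithelial cells (log2 -1.80), the 1 of 3 genes there past 2-fold, with a median of -0.93. CTSO was 26.9 and 44.0 CPM (log2 0.71), and in mesenchymal cells it alone reached 10 CPM (0.86).

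The genes most like CTSS over single cells differed by class. Over 730 epithelial 3CK cells and 3226 genes of at least 50 CPM, HLA-B (Pearson r 0.36) and HLA-C (0.35), MHC class I heavy chains, were among the genes with the highest r. Over 106 mesenchymal 3CK cells the highest r were with TNIP1 (0.43), RIPK2 (0.43) and IRF1 (0.38). The tetraspanin CD63 of lysosomal membranes was the gene most like CTSB in epithelial CNT cells (0.28) and mesenchymal CNT cells (0.40), and most like CTSH (0.28) in epithelial CNT cells. CST3 was the gene most like CTSD in mesenchymal CNT cells (0.43). All cells of a comparison share 1 library and were thinned to 10000 UMIs, and the values describe these cells only. Correlations of CTSS with the 8 other cathepsins lay between -0.03 and 0.12 in epithelial 3CK cells, with CTSL the highest.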

How the data were processed

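Values are UMI counts for each gene and barcode as deposited by the authors, without normalisation, made with Cell Ranger 7.1.0 on GRCh38, per the submitters' processing notes. The annotation is not given in the sources used here. About 8300 cells were loaded per library, per the labels. Barcodes with at least 500 genes and at most 20% mitochondrial UMIs were kept, and the highest Scrublet scores were removed at 0.8% per 1000 barcodes (scanpy 1.11.5, Python 3.11.15). UMIs were summed per class and library and scaled to CPM. At 0 UMIs a floor of 3 was used. Sums have exact Poisson intervals, ratios exact binomial ones, and shares of cells Clopper-Pearson ones. Scripts were tested on simulated data. TMM factors came from edgeR 4.0.16. UMIs tag transcript ends, so CPM is not scaled by length. Coordinates are from GENCODE v44.

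The members and lists were chosen with earlier results of these data known. Named genes were all members and, per list, the highest CPM and the largest and smallest ratios, with others named after their values were seen, and results of some genes are not reported here. Barcodes are taken as cells, and fewer cells were not separated from less RNA per cell except in per-cell values. Alternatives were other filters, doublets, depths, weights, scalings, boundaries and folds, and 1 added later left out cells with leukocyte transcripts.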

Additional observations from a re-analysis of the deposited data

Results flagged for a closer look

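CTSB, CTSC and CTSK had ratios of 3CK over CNT on opposite sides of 0 in the 2 classes. The log2 ratio was -0.10 in epithelial and 0.39 in mesenchymal cells for CTSB, -0.24 and 0.42 for CTSC, and -0.83 and 0.69 for CTSK. With 1 library per group, the difference between the classes was not tested. CTSK rests on 260 and 135 epithelial and 75 and 56 mesenchymal UMIs.

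CTSS was also present in barcodes that the filters removed and that enter no comparison. In 52 3CK barcodes removed for under 500 genes it had 5 UMIs (70.6 CPM, 22.9 to 164.8), against 0 of 383287 UMIs in 412 CNT barcodes. In 175 3CK barcodes removed for over 20% mitochondrial UMIs it had 226 UMIs (169 CPM, 148 to 193), against 9 UMIs (4.50 CPM) in 306 CNT barcodes. How much of this is RNA outside cells was not tested.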

How the results depend on the processing

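The 36 log2 ratios were recomputed under 9 alternatives that change values, and 23 of 324 results changed sign, 14 of them with a main counting interval that excluded 0 and 9 with one that held 0. Of the others and these 9, 215 stayed within the counting interval and 95 moved outside it. For 3CK over CNT, CTSS ranged from 6.32 to 6.81 in epithelial and from 5.77 to 6.80 in mesenchymal cells. Members at least 2-fold higher in mesenchymal 3CK cells numbered 2 without a filter, with TMM and at 1.5-fold, where CTSZ joined CTSS, and 2 were lower at 1.5-fold. In epithelial 3CK cells 1 was lower at 1.5-fold (CTSH). Of mesenchymal over epithelial CNT cells, 2 were lower with TMM, with the total without the 50 most abundant, mitochondrial and ribosomal genes, with stricter class boundaries and at 1.5-fold, and 2 were higher at 1.5-fold. The share of cells with a CTSS UMI in CNT was 7.41% (epithelial) and 8.36% (mesenchymal) unthinned and 2.07% and 2.25% at 10000 UMIs. In 3CK it was 80.1% and 84.7%, and 78.6% and 69.8%. Of the 14, signs changed for CTSD in mesenchymal 3CK over CNT with the stricter filter (-0.0013) and stricter boundaries (-0.054). With equal weight per cell they changed for CTSB in epithelial 3CK over CNT (0.0030), and for CTSB (0.0028) and CTSS (-0.47) in mesenchymal over epithelial CNT. With TMM they changed for mesenchymal over epithelial cells, for CTSA (-0.024) and CTSD (-0.083) in CNT and for CTSA (-0.085), CTSD (-0.030) and CTSS (-0.087) in 3CK. CTSZ in epithelial 3CK over CNT was -0.033 with the reduced total. With stricter boundaries, CTSA (-0.15) and CTSD (-0.045) changed for mesenchymal over epithelial 3CK cells, and without cells with a leukocyte transcript CTSS did (-0.10). The 9 others were in mesenchymal over epithelial cells: CTSK in CNT with equal weight (-0.33), TMM (-0.26) and the reduced total (-0.0027), CTSL in 3CK with TMM (-0.16), the reduced total (-0.066), stricter boundaries (-0.071) and no leukocyte-transcript cells (-0.017), and CTSZ in 3CK without a filter (0.012) and without doublet removal (0.018). The cause was not tested. TMM moved the median of all genes from -0.12 to 0.08 in mesenchymal 3CK over CNT, and from 0.28 to -0.19 (CNT) and 0.07 to -0.13 (3CK) in mesenchymal over epithelial cells. The higher share of genes past 2-fold went from 33.4% to 49.0%, 63.3% to 40.0% and 53.1% to 43.1%. With the reduced total that median was -0.067 in epithelial 3CK over CNT and 0.11 in mesenchymal over epithelial CNT cells. Counting genes from 1 CPM instead of 10 CPM, 12.1% of all genes in epithelial and 16.7% in mesenchymal cells were at least 2-fold lower in 3CK, against 7.62% and 9.59%. No paired analysis was possible because each group is 1 library.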

Other observations

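Cycling cells, those with at least 2 UMIs of MKI67 and TOP2A per 10000, showed CTSS too. In 37 cycling epithelial 3CK cells it was 170 CPM, and in 17 cycling mesenchymal 3CK cells 282 CPM, against 1 UMI in 62 and 14 UMIs in 67 cycling CNT cells. CTSD in cycling epithelial cells was 155 CPM in CNT and 289 CPM in 3CK (log2 0.90, 0.69 to 1.13).

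Among barcodes that met neither class definition, 253 in CNT and 258 in 3CK, CTSC was 49.3 and 117 CPM and CTSZ 52.9 and 151 CPM. CTSH was 26.3 and 21.8 CPM there.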
